A study of Mus musculus with 6 samples.

Results

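Mitochondrial DNA, transcription and translation factors are nuclear genes whose products copy and read the mitochondrial genome and translate its messages, together with the nuclear factors that control them. The group comprised 34 named genes: 3 nuclear regulators, 4 factors of mitochondrial transcription, 4 of mitochondrial DNA maintenance, 8 translation factors and 15 mitochondrial aminoacyl-tRNA synthetases. They were taken by symbol, and not by any measured value, from the probe sets that carry 1 symbol in the platform table. Of these, 33 had such a probe set and all 33 passed the filter on dim signals, among 12946 genes tested. Mtrf1, a mitochondrial release factor, had none and has no value here. Where a gene had several, the brightest one gave its value.

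RNA came from hearts of male mice under basal conditions, 3 wild-type (WT) and 3 labelled KO, with the receptor ERRα (estrogen-related receptor alpha, gene Esrra) knocked out, with 1 Affymetrix array per heart. The labels give C57BL/6J mice aged 2 to 3 months for 5 of them. They give neither strain nor age for WT 1, and a comment in the header of that array numbers the mouse differently from its title, which was used. The labels do not say how the null allele was made or in which cells it acts, and nothing else separates the groups in them. The signal of Esrra was 368.1, 394.4 and 349.1 in WT 1 to 3, against 24 and 18 in KO 2 and KO 3. It stood at 180.1 in KO 1, so this library goes against its label, and the 3 are called the libraries labelled KO. In bulk tissue, fewer cells of a type and less RNA per cell cannot be told apart.

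Mitochondria carry a small circular genome that encodes a few respiratory chain subunits with the ribosomal and transfer RNAs needed to make them; all other components are imported. Transcription starts when TFAM and a TFB factor bring the mitochondrial RNA polymerase to the promoter, and the messages are translated by a dedicated set of factors, synthetases and ribosomes. In muscle, the nuclear factors NRF1 and GABP activate many of these nuclear genes, and the coactivator PGC-1α acts on both of them and on ERRα.

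None of the 33 genes passed the threshold of an adjusted p under 0.05 in either direction (limma, two-sided, Benjamini-Hochberg over all genes tested), where 1.18% of all genes were called lower and 1.78% higher. Without adjustment 6 were lower and 0 higher at p under 0.05, against 6.44% and 6.07% of all genes. The direction was mostly shared: 29 of 33 had a negative log2 difference (KO minus WT), against 55.0% of all genes, and the median was -0.20, against -0.028 for all genes. The signals of all 3 libraries labelled KO lay below all 3 WT hearts for 8 genes, where this held for 9.41% of all genes. For 0 of the 33 they lay above, against 6.81% of all genes. Standard errors ran from 0.145 to 0.226 on the log2 scale, and for 32 genes the 95% interval excluded a fall of 1, while for only 12 of them did it exclude a fall of 0.5. The number of arrays, 3 a group, limits this precision. The spread is that between these hearts, drawn mostly from genes of like intensity and less from the gene itself.

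Leaving out WT 1 cut the genes called lower from 153 to 19 and those called higher from 231 to 103. The weight of the variance shared by genes of like intensity fell with it, from 45.6 to 7.14 degrees of freedom. Without KO 2 or KO 3, 84 and 77 were lower, and without KO 3, 119 were higher. Among the 33 genes Tfb1m passed without WT 2 (limma adjusted p = 0.0273) and Ssbp1 without KO 1, as described with that gene. None passed without any other single heart. The fit without WT 2, like that without KO 1, drew every gene's variance wholly from the one shared by genes of like intensity.

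**Figure D1:**
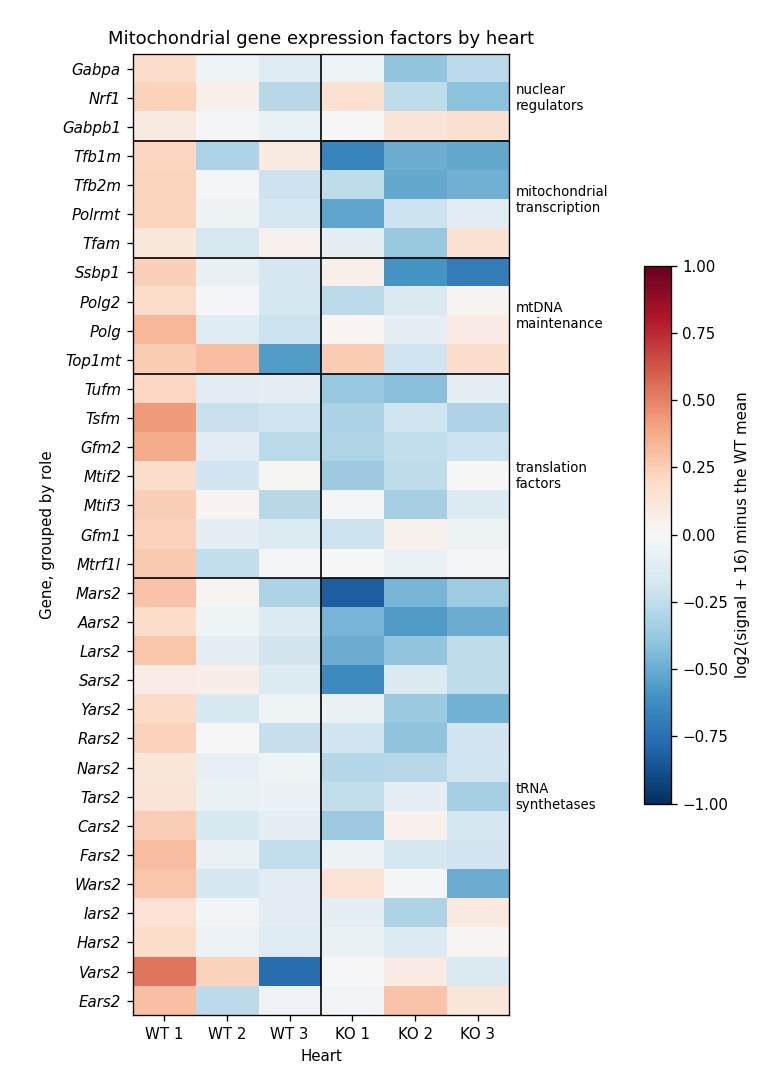
Each row is 1 gene and each column 1 heart, coloured by log2(signal + 16) minus the mean of the 3 WT hearts, with genes grouped by role. WT 1 is the brightest heart for 30 of the 33 genes, and the rows of Tfb1m, Tfb2m, Aars2 and Lars2 are blue in all 3 libraries labelled KO.

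The level of the arrays bears on these counts. WT 1 was the brightest heart for 30 of the 33 genes and for 51.1% of all genes. Its median signal was 16, against 12.4 to 13.7 on the other arrays. Relative to the WT mean of each gene, WT 1 to 3 had medians over the 33 of 0.227, -0.0701 and -0.135, against -0.190, -0.244 and -0.191 for KO 1 to 3. The medians over all genes were 0.181, -0.0879 and -0.0874 for the WT hearts, against -0.0230, -0.0592 and 0.0126. After quantile normalization, which puts the arrays on a common distribution, the medians of the 33 were 0.0234, 0.0405 and -0.0442 for the WT hearts, against -0.175, -0.170 and -0.232 for KO 1 to 3, so the groups did not overlap, and the medians over all genes stayed between -0.0113 and 0.00567. With that scaling 2 of the 33, Tfb1m and Aars2, fell, where 1.42% of all genes were called lower and 2.01% higher. The libraries labelled KO lay below every WT heart for 14 genes, against 12.5% of all genes. Of the 8 genes separated in the deposited signals, 7 were among these 14, the exception being Tars2. Without WT 1 the median of the 33 was -0.0662 and that of all genes 0.0579, and 24 of the 33 differences were negative, against 39.6% of all genes. Without both WT 1 and KO 1, an alternative added after the data were seen, the medians were -0.0557 and 0.0571, again with 24 negative.

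**Figure D2:**
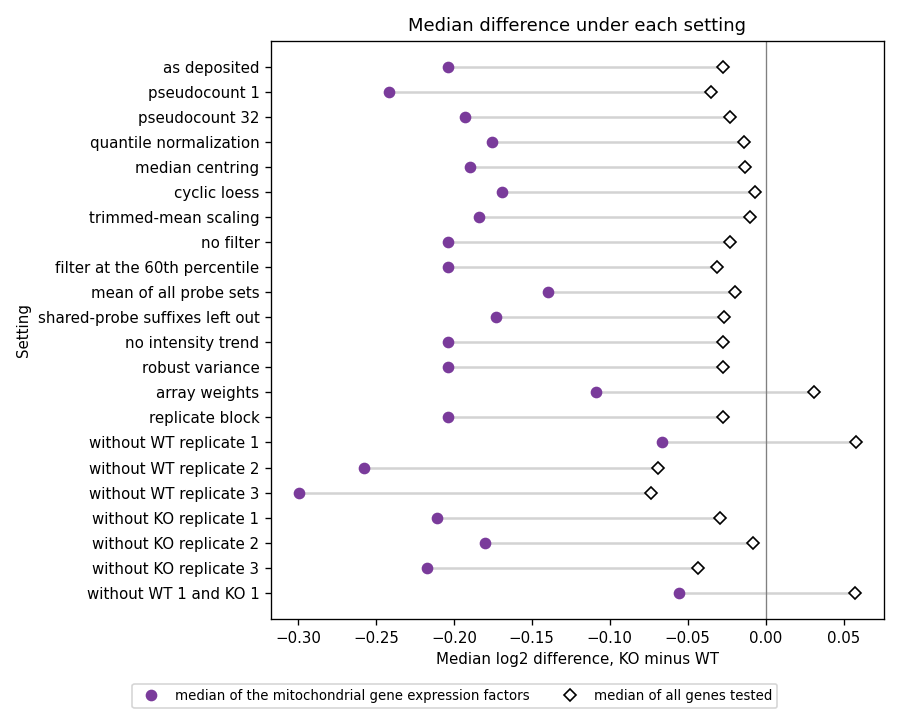
Median log2 difference, KO minus WT, of the 33 genes (filled circles) and of all genes tested (open diamonds) as deposited and under each of 21 alternative settings. The circle lies left of the diamond in every row, by 0.11 to 0.23, and both move right where WT 1 is left out.

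The factors grouped under mitochondrial transcription had the lowest median of the 5 roles, -0.35 over 4 genes, all with negative differences. Without WT 1 these 4 were again negative, at a median of -0.24. Without KO 1 their median, -0.33, was level with that of the nuclear regulators, and without KO 2, 3 of them were negative. With probe sets of shared probes left out, 3 were negative and the median was -0.20, above the -0.22 of the synthetases. Tfb1m and Tfb2m encode the related rRNA methyltransferase and transcription factor of mitochondria. Tfb1m gave a signal of 136.2, 89.6 and 123.6 across the WT hearts, against 66.7, 76.9 and 75.9 across KO 1 to 3. The groups did not overlap, and the difference, from 116 ± 24.1 to 73.2 ± 5.62 (SD, n = 3 each), was -0.56 on the log2 scale (SE 0.175, 95% interval -0.91 to -0.20). Its limma adjusted p was 0.0733 as deposited and 0.0430 with quantile normalization. This reading comes from a probe set whose suffix marks probes shared between transcripts. The dimmer probe set of Tfb1m gave 26.6, 23.9 and 29.2 in WT and 35.9, 28.4 and 26.2 in the libraries labelled KO, a log2 difference of 0.11, so the probe sets of the gene disagreed in direction.

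Tfb2m, which opens the promoter for the polymerase, gave 584.8, 491.7 and 429.8 across the WT hearts, against 415.8, 344.5 and 351.6 across KO 1 to 3. All 3 libraries labelled KO were below the lowest WT heart, with KO 1 the nearest to it. The signal went from 502 ± 78.0 to 371 ± 39.3, which is -0.42 on the log2 scale (SE 0.159, limma adjusted p = 0.182). With quantile normalization it was -0.38, with an adjusted p of 0.0624 by limma.

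Polrmt, the mitochondrial RNA polymerase itself, gave 450.6, 370.6 and 337.3 across the WT hearts, against 261.7, 327.9 and 353 across KO 1 to 3. KO 3 lay inside the WT range, and the log2 difference of -0.28 (SE 0.164, limma adjusted p = 0.506) did not pass. Its other probe set was at -0.21. Tfam, which packages the mitochondrial genome and bends its promoters, gave 204.8, 166 and 194 across the WT hearts, against 174.7, 140.4 and 210.2 across KO 1 to 3. KO 3 was the brightest heart of all and KO 2 the dimmest, so the groups overlapped fully, at -0.11 (SE 0.172, interval -0.45 to 0.24, limma adjusted p = 0.879). The second Tfam probe set was at -0.20.

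The windows from 250 bases before to 50 after the start sites of Tfam, Tfb1m and Tfb2m are shown. The rule named these 3 genes whatever their values, and any gene past the threshold, of which there was none. They were taken from RefSeq on GRCm38.p6, for Tfam chr10:71237995-71238294, for Tfb1m chr17:3557706-3558005 and for Tfb2m chr1:179546227-179546526, all on the minus strand and written 5′ to 3′ along the gene. Capitals mark matches to any of the 3 motifs searched on both strands: TNAAGGTCA for the ERR element, GCGCATGC for NRF1 and CCGGAAG for ETS factors such as GABP.
Tfam: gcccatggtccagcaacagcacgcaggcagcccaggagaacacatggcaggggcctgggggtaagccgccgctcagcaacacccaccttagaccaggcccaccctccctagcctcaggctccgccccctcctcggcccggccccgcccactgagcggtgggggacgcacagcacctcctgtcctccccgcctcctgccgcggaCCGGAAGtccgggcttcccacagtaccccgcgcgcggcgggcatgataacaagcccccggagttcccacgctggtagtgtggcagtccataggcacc
Tfb1m: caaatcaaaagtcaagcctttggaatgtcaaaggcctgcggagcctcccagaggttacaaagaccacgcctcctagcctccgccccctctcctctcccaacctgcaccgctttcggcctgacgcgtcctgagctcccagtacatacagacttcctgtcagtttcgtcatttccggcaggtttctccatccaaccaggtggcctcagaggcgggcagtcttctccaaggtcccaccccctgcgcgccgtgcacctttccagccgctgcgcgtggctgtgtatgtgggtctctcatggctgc
Tfb2m: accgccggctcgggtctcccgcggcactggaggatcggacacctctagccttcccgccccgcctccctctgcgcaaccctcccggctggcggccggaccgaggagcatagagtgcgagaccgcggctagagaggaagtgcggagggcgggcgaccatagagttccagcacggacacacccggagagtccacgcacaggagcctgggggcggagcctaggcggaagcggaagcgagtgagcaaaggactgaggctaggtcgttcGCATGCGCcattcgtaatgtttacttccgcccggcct
The Tfam window holds 1 ETS match, whose first base is at -47 from the start site. That of Tfb2m holds 1 NRF1 match, from position 14. The Tfb1m window holds none of the 3 letter strings.

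Windows were found for 31 of the 34 genes, 34 windows in all; Top1mt, Mtif3 and Hars2 had none in the table used. The ETS string stood in 13 of the 34 windows (38.2%), in 15.6% of 13375 windows of the genes tested and in 8.86% of all 32851 windows. The NRF1 string stood in 5 (14.7%), against 4.64% and 2.71%. The ERR element stood in 1 window (2.94%), that of Mtrf1l, against 0.852% and 1.28%. The G and C content was 59.5% for these windows, 60.1% for the genes tested and 53.8% over all windows. These are letter matches and not measured binding, and no test was made of them.

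The ETS matches lay in Gabpa, Tfam, Polg, Polg2, Polrmt, Ssbp1, Tufm, Gfm1, Mtif2, Cars2, Mars2, Rars2 and Sars2. The median log2 difference was -0.24 over these 13 and -0.22 over the 17 tested genes with a window and no ETS match. The NRF1 matches are shown with 10 bases on each side, in capitals and on the strand of the gene, because NRF1 is itself among the regulators measured. They lie at chr1:179546246-179546273 for Tfb2m, chr10:79746697-79746724 for Polrmt, chr4:34614896-34614923 for Rars2, at chr17:35667621-35667648 and chr17:35667595-35667622 for Vars2, and at chr3:99141016-99141043 for Wars2. Those of Tfb2m, Rars2 and Vars2 read on the opposite strand of the gene.
Tfb2m: taggtcgttcGCATGCGCcattcgtaat
Polrmt: gagtatttctGCGCATGCtctcttgccg
Rars2: ggccccgtgtGCATGCGCactccacact
Vars2: agtcttttacGCATGCGCctgcgtgtcc
Vars2: ccccgcccacGCATGCGCgcgcacctcg
Wars2: cagaggacagGCGCATGCgtagtaagca
The 5 genes with an NRF1 match had a median of -0.26, and 1 of them, Tfb2m, was separated between the groups. Over the 25 tested genes with a window and no NRF1 match the median was -0.22, and 7 were separated. Over all genes tested, 9.41% were separated below WT.
The single ERR element match, at chr10:5824133-5824161 on the minus strand, begins at -208 from the start site of Mtrf1l.
Mtrf1l: actcgctatcTCAAGGTCAcgcctaggca
Mtrf1l, a release factor that ends mitochondrial protein synthesis, gave 48.4, 29.2 and 37 across the WT hearts, against 37.4, 35.2 and 36.8 across KO 1 to 3, which all lay inside the WT range (log2 difference -0.032, SE 0.184).

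**Figure D3:**
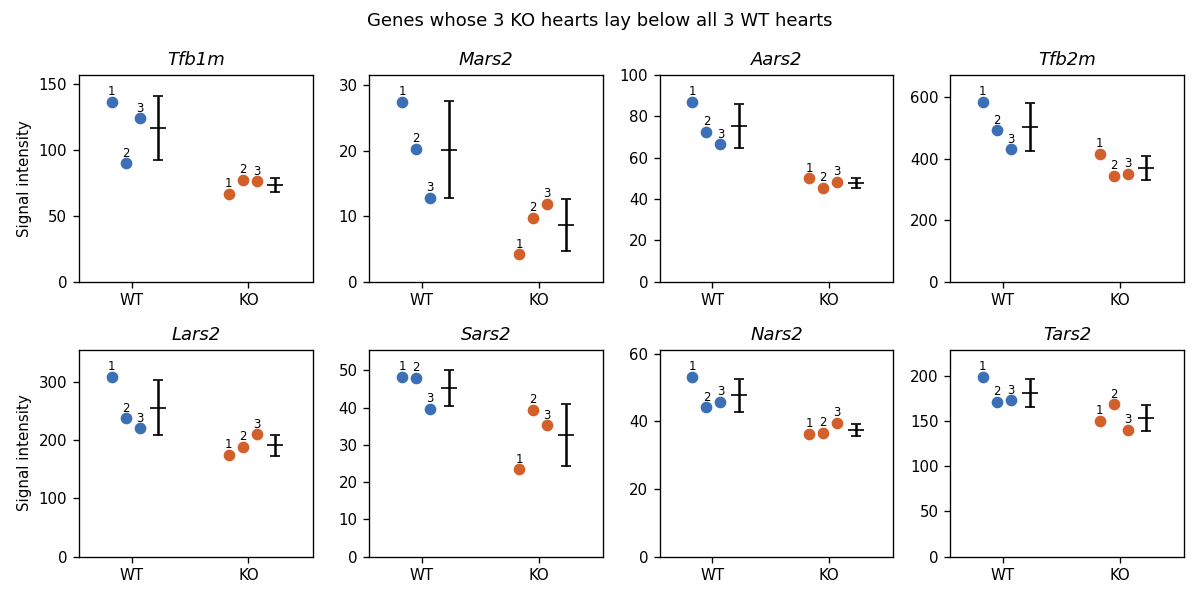
Signal intensity on a linear axis from 0 in each heart, numbered, for the 8 genes whose libraries labelled KO all lay below the WT hearts; black marks give the mean and SD of 3 hearts. For Aars2 the highest library labelled KO, at 50, lies well under the lowest WT heart, at 66.5, while for Tars2 KO 2 at 168.5 lies just under WT 2 at 171.3.

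Among the nuclear regulators, 0 of 3 were separated, beside 9.41% of all genes below WT. The median was -0.17, or -0.054 without WT 1. With probe sets averaged it was 0.087, with 1 of 3 negative. Nrf1 encodes the factor that binds many promoters of respiratory genes. Its signal was 53.2, 44.9 and 32.5 across the WT hearts, against 49.5, 33.3 and 28.4 across KO 1 to 3, a spread that overlapped across the groups (-0.17, SE 0.189, limma adjusted p = 0.807). A second Nrf1 probe set was also at -0.17. Its 2 others were at 0.44 and 0.46, read from dim signals of 3.9 to 16.2 and 1 to 18.3. Gabpa, the DNA-binding subunit of GABP, gave 223.5, 190 and 178 across the WT hearts, against 190.3, 145.7 and 159.8 across KO 1 to 3, where KO 1 lay among the WT hearts. The difference of -0.24 (SE 0.169, limma adjusted p = 0.650) was not shared by its other probe set, at 0.10. Gabpb1, the partner that activates transcription, was at 0.097 (SE 0.185).

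Of the 4 genes of mitochondrial DNA maintenance, 2 had negative differences, and the median was -0.061, or 0.070 without WT 1. With probe sets averaged the median was 0.050 and 1 of 4 was negative. Polg, the catalytic subunit of the mitochondrial DNA polymerase, gave 197.2, 139.7 and 129.9 across the WT hearts, against 155.9, 143.3 and 162.9 across KO 1 to 3. The libraries labelled KO all lay within the WT range, and the log2 difference was 0.0055 (interval -0.34 to 0.35). Its accessory subunit Polg2 was at -0.13 and the topoisomerase Top1mt at 0.075, read from a dim signal of 8 to 27.6.

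Ssbp1 encodes the single-stranded DNA binding protein of the replication fork. Its signal was 789.3, 630.5 and 590.7 in WT, 688.1 in KO 1, and 436.3 and 405.3 in KO 2 and KO 3. KO 1, which kept more Esrra signal than the others, lay inside the WT range, and KO 2 and KO 3 lay below it. The difference was -0.41 (SE 0.165, limma adjusted p = 0.223), and without KO 1 it was -0.64 and passed (limma adjusted p = 0.0216). That fit drew the variance of every gene wholly from the one shared by genes of like intensity. Another probe set of Ssbp1 gave 250.7, 221.3 and 256.4 in WT and 244.8, 233.5 and 237.5 in the libraries labelled KO, a difference of -0.021. The probe sets of the gene did not report the same change.

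**Figure D4:**
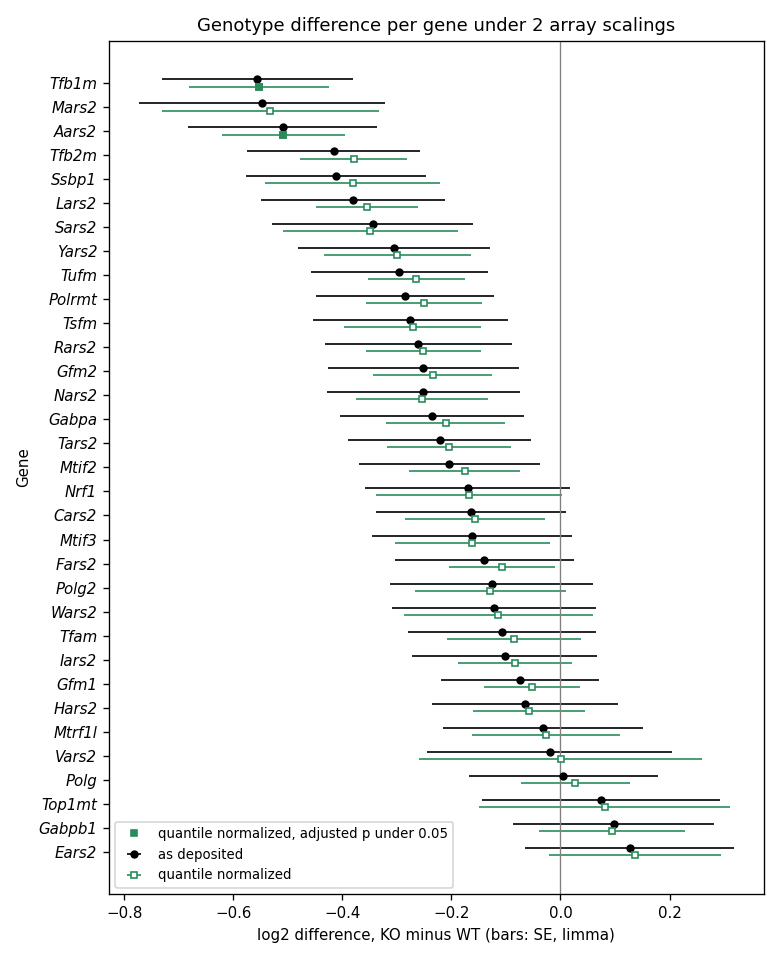
Log2 difference, KO minus WT, with its SE for each gene, from the deposited signals (black circles) and after quantile normalization (green squares, filled where the adjusted p was under 0.05). The filled squares are Tfb1m and Aars2; 29 of 33 black circles and 28 of 33 squares lie left of 0.

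All 7 translation factors measured were negative, beside 55.0% of all genes, at a median of -0.20. Of these factors 0 were separated between the groups, beside 9.41% of all genes below WT. Without WT 1, 5 of them were negative and the median was -0.064. Tufm, the elongation factor that brings each charged tRNA to the mitochondrial ribosome, gave 427.3, 340.7 and 344.9 across the WT hearts, against 280.1, 272 and 345.8 across KO 1 to 3. KO 3 lay at the level of WT 2 and WT 3, and the difference of -0.30 (SE 0.162, limma adjusted p = 0.478) did not pass. Its 3 other probe sets were at -0.12, -0.18 and -0.21, the last 2 of them dim. Tsfm, the exchange factor that returns Tufm to its active form, was at -0.28 and the ribosome recycling factor Gfm2 at -0.25. In both, WT 1 stood far above the rest: 154.7 against 86 to 95 for Tsfm, and 214.8 against 129.3 to 150.1 for Gfm2. The initiation factors Mtif2 and Mtif3 were at -0.20 and -0.16, and Gfm1, the translocase, at -0.074 (SE 0.145).

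The mitochondrial aminoacyl-tRNA synthetases, each of which loads 1 kind of amino acid onto its tRNA, formed the largest role. Of 15 measured, 14 had negative differences, beside 55.0% of all genes, and 6 were separated between the groups, beside 9.41%, with a median of -0.22. Without WT 1, 11 were negative and the median was -0.15, beside 39.6% and 0.058 for all genes. Aars2, the alanine enzyme, gave 87, 72.5 and 66.5 across the WT hearts, against 50, 45.3 and 48.4 across KO 1 to 3. The 3 libraries labelled KO lay close together and below every WT heart, at 63.6% of the WT mean. The log2 difference was -0.51 (SE 0.173, interval -0.86 to -0.16), with a limma adjusted p of 0.111 as deposited and 0.0359 with quantile normalization.

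Mars2, the methionine enzyme, was dim, at 27.5, 20.3 and 12.8 across the WT hearts, against 4.2, 9.8 and 11.9 across KO 1 to 3. It had the lowest ratio of the 33 genes, 42.7% of the WT mean (-0.55 on the log2(signal + 16) scale, SE 0.226, limma adjusted p = 0.244), and the detection calls of the arrays were not used here. Lars2, the leucine enzyme, gave 309.6, 237.5 and 220.5 across the WT hearts, against 174.8, 189.3 and 210 across KO 1 to 3. The groups were separated, though KO 3 lay near WT 3, at -0.38 (SE 0.169, limma adjusted p = 0.306), and its 2 other probe sets were at -0.23 and -0.34.

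Sars2, Nars2 and Tars2, the serine, asparagine and threonine enzymes, were also separated. Sars2 gave 48.3, 47.9 and 39.7 across the WT hearts, against 23.4, 39.4 and 35.2 across KO 1 to 3 (log2 difference -0.34, SE 0.184). Nars2 gave 53.2, 44.1 and 45.8 across the WT hearts, against 36.2, 36.6 and 39.5 across KO 1 to 3 (-0.25, SE 0.177). Tars2 gave 199.1, 171.3 and 172.7 across the WT hearts, against 150, 168.5 and 140.5 across KO 1 to 3 (-0.22, SE 0.167). None of them passed, with limma adjusted p of 0.460, 0.638 and 0.672.

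The other synthetases overlapped between the groups. The tyrosine enzyme Yars2 was at -0.31, the arginine enzyme Rars2 at -0.26, the cysteine enzyme Cars2 at -0.16, the phenylalanine enzyme Fars2 at -0.14 and the tryptophan enzyme Wars2 at -0.12. Iars2, Hars2 and Vars2, for isoleucine, histidine and valine, were at -0.10, -0.065 and -0.020. Ears2, the glutamate enzyme, was the exception in sign, at 0.13 (SE 0.191), from 29.9 ± 9.13 in WT to 33.7 ± 5.36 (SD, n = 3). It had the highest ratio of the 33 genes, 113% of the WT mean.

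KO 1, in which Esrra signal was left, lay below every WT heart for 16 of the 33 genes, against 19 for KO 2 and 15 for KO 3. Over all genes tested these shares were 24.7%, 32.3% and 25.5%. Among the libraries labelled KO it was the lowest for 14 of the 33 genes, Tfb1m, Polrmt, Mars2 and Sars2 among them, and the highest for 12, among them Tfb2m, Aars2, Nrf1, Ssbp1 and Gabpa. The median of the mitochondrial transcription role relative to WT was -0.388, -0.438 and -0.299 in KO 1 to 3, and that of the nuclear regulators 0.00142, -0.257 and -0.272. For mitochondrial DNA maintenance it was 0.0355, -0.172 and 0.0533, for the translation factors -0.297, -0.244 and -0.0897, and for the synthetases -0.190, -0.172 and -0.196. With 1 heart of this kind these differences have no replicate.

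Of the 33 genes, 20 had several probe sets above the filter. For 11 of them every such probe set had a negative difference. The signs were mixed for 7: Tfb1m, Ssbp1, Gabpa and Nrf1, described above, and Gfm2, Fars2 and Iars2. For 2, Gabpb1 and Polg, all were positive.

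Among the regulators that act with the receptor, 1 moved the other way. Ppargc1a, which encodes PGC-1α, gave 613.9, 500.2 and 503.3 across the WT hearts, against 988.5, 1087 and 1295.3 across KO 1 to 3. Every library labelled KO was above every WT heart, and the gene rose by 1.04 on the log2 scale (SE 0.148, limma adjusted p = 2.34e-06). Ppargc1b, its relative PGC-1β, lay below WT in all 3, at -0.20 (SE 0.153, limma adjusted p = 0.676). Esrrg, the related receptor ERRγ, was at 0.11 (SE 0.169, limma adjusted p = 0.870). Of 18 upstream regulators tested besides Nrf1, Gabpa and Gabpb1, 1 fell and 1 rose, beside 1.18% and 1.78% of all genes. The median of these regulators was 0.12. With probe sets averaged the median was -0.0061, with 10 of 18 negative. With quantile normalization, cyclic loess, trimmed-mean scaling or array weights, 2 rose. The one that fell as deposited was Nrip1, the corepressor RIP140, with 217.2, 194 and 237.6 across the WT hearts, against 131.4, 146 and 130.8 across KO 1 to 3 (-0.61, SE 0.167, limma adjusted p = 0.0278). Its groups were well apart, but the call was lost when WT 1, WT 3, KO 1, KO 2 or KO 3 was left out (limma adjusted p of 0.0633 to 0.165). It was also lost with no filter on dim signals (0.0993), without the intensity trend (0.0825) and with the gene's probe sets averaged (-0.45, limma adjusted p = 0.136).

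Other genes of the same processes were read for comparison. Of 21 further genes of mitochondrial DNA replication and maintenance, 0 fell and 0 rose, beside 1.18% and 1.78% of all genes. Of these 21, 15 were negative, beside 55.0% of all genes, with a median of -0.11. Mpv17, an inner membrane protein needed to keep mitochondrial DNA, went the other way, from 208.7, 186.2 and 152.7 in WT to 268.8, 269.7 and 251.3 in KO 1 to 3. Its libraries labelled KO lay above all WT hearts at 0.50 (SE 0.166, limma adjusted p = 0.0990), and with quantile normalization it rose (0.53, limma adjusted p = 0.0226). It also passed with the 3 other scalings, with array weights and without WT 1 and KO 1 (limma adjusted p of 0.00983 to 0.0360). These were 6 of 22 settings, the deposited signals included. It did not pass in the others, with differences down to 0.30 and limma adjusted p up to 0.426. Among these were the fits without WT 1 (0.0552 by limma) and without KO 1 (0.217 by limma). Top3a, a topoisomerase, had the lowest value, -0.70, but its WT hearts gave 3.4, 29.5 and 19.5, so WT 1 was as dim as the libraries labelled KO. Those gave 3.9, 2.8 and 3.4, under the signal of 8.17 that corresponds to the filter, so the size of the difference rests on values near the floor of the arrays. Top3a passed as lower in 2 of the 18 settings that tested it. These were array weights (-0.96, limma adjusted p = 0.0133) and the removal of WT 1 and KO 1 (-1.07, limma adjusted p = 0.0288).

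Of 26 further genes of mitochondrial transcription and RNA processing, none passed in either direction, 20 were negative and 3 were separated below WT, with a median of -0.10. Beside this list and those that follow, 55.0% of all genes were negative and 9.41% were separated below WT. Mterf2, of the mitochondrial termination factor family, gave 319.1, 211.5 and 231.7 across the WT hearts, against 181.8, 200.8 and 198.2 across KO 1 to 3 (-0.35, limma adjusted p = 0.385). Hsd17b10, a subunit of mitochondrial RNase P, was at -0.32 (SE 0.148). Of 17 further genes of tRNA charging and modification, 15 were negative, with a median of -0.12, and again none passed. Trit1, which modifies tRNA at the base beside the anticodon, was at -0.40 (SE 0.192) with its groups separated, and the tRNA methyltransferase Nsun2 at -0.25 (SE 0.174). Of 20 further genes of translation and ribosome assembly, 16 were negative, 5 were separated and none passed, with a median of -0.13. Among them were the helicase Ddx28 at -0.54 (SE 0.190) and the inner membrane protein Letm1 at -0.48 (SE 0.174). Letm1 gave 337.7, 216.6 and 233.2 across the WT hearts, against 206.8, 153.8 and 181.7 across KO 1 to 3. For these 4 lists the counts at an unadjusted p under 0.05 were 4, 2, 1 and 3 lower, with 1 higher in the first. Over all genes the shares were 6.44% lower and 6.07% higher. Without WT 1 their medians were -0.072, -0.012, -0.085 and 0.0069, with 11, 14, 11 and 9 genes negative, so the last of them changed sign.

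The mitochondrial ribosomal proteins, the partners of the translation factors, were the largest related list. Of 76 tested, 66 were negative, beside 55.0% of all genes. All 3 libraries labelled KO lay below WT for 21, beside 9.41% of all genes, and above it for 0, beside 6.81%. The median was -0.17, and without WT 1 it was -0.036, with 48 negative. Mrpl55 and Mrpl34, of the large subunit, were the 2 of the 76 that fell, beside 1.18% of all genes. Mrpl55 went from 773.3, 599.2 and 593.9 to 447, 380.3 and 346.9 in KO 1 to 3 (-0.72, SE 0.157, limma adjusted p = 0.00318), and Mrpl34 from 575.6, 403.9 and 444.8 to 327.6, 275.6 and 261.3 (-0.68, SE 0.163, limma adjusted p = 0.00827). Both were clear of the WT range in every library labelled KO. Without WT 1 neither passed (limma adjusted p of 0.0515 and 0.0744), and Mrpl34 did not pass without KO 2 or KO 3 either (limma adjusted p of 0.0578 and 0.0764). With no filter neither passed (0.0618 and 0.0928 by limma). Mrpl34 was also lost without the intensity trend (limma adjusted p = 0.0689) and with its probe sets averaged, where it was at -0.42 (limma adjusted p = 0.288). The mitochondrially encoded transcripts were represented by ND5 alone, a complex I subunit. It gave 10698.1, 9813.3 and 9529.1 across the WT hearts, against 9653, 9408.8 and 9364 across KO 1 to 3, near the highest signal on the arrays, at -0.078 (SE 0.0890).

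The cytosolic counterparts were read the same way. Of 17 cytosolic aminoacyl-tRNA synthetases, 15 were negative and 3 were separated below WT, beside 55.0% and 9.41% of all genes. None passed the threshold, and 1 was lower at an unadjusted p under 0.05 by limma, beside 6.44% of all genes. Their median was -0.097, beside -0.22 for the 15 mitochondrial ones. Mars1, the cytosolic methionine enzyme, was at -0.36 (SE 0.167) and Sars, the serine enzyme, at -0.28 (SE 0.169). Of 14 cytosolic translation factors, 10 were negative, beside 55.0% of all genes. Their median was -0.047, beside -0.20 for the mitochondrial ones. Eef1a1, an elongation factor whose mitochondrial relative is Tufm, was the 1 of the 14 that rose, beside 1.78% of all genes. It gave 3266.4, 2803.8 and 3151.4 across the WT hearts, against 3608.3, 4078.7 and 4819.3 across KO 1 to 3 (0.43, SE 0.115, limma adjusted p = 0.0227), and of the single leave-outs the call held only without KO 1. It was also lost with no filter (0.254), with probe sets averaged (0.0974) and without the intensity trend (0.298 by limma). Without WT 1 the cytosolic medians were -0.036 for the synthetases and 0.050 for the translation factors. The differences between mitochondrial and cytosolic lists were not tested.

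**Figure D5:**
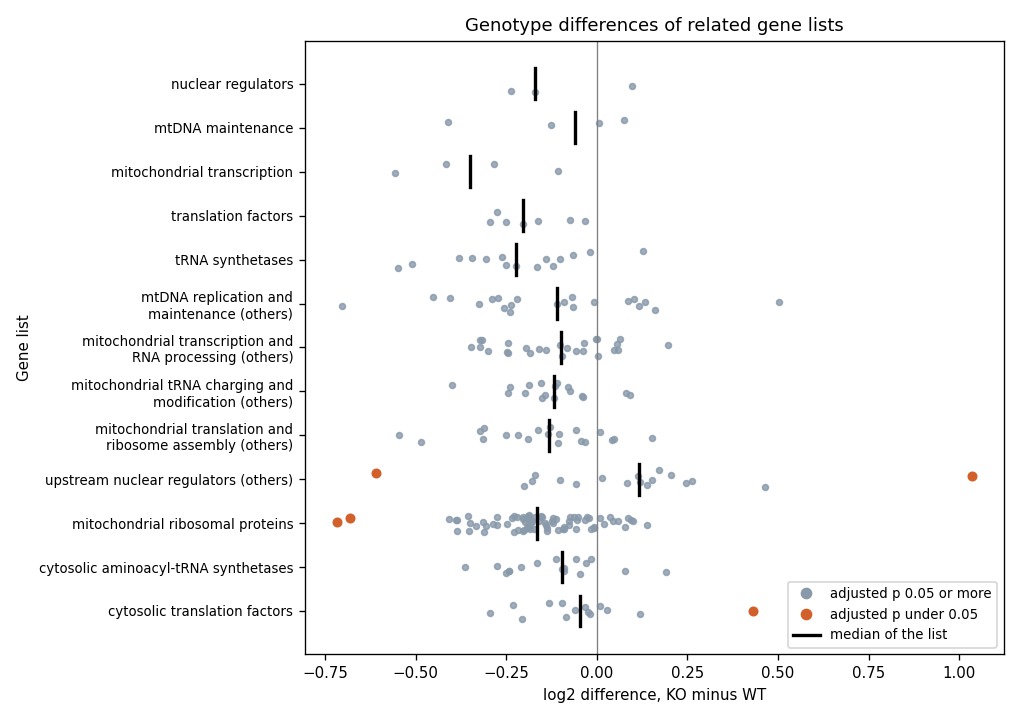
Log2 difference, KO minus WT, of every gene tested in the 5 roles and in the related lists; orange points have an adjusted p under 0.05 and black bars are medians. The bars of the mitochondrial lists lie left of 0, at -0.35 for mitochondrial transcription, and that of the upstream nuclear regulators lies right of it, at 0.12.

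Markers of other heart cell types moved with genotype. Beside the marker counts below, 1.18% of all genes were called lower and 1.78% higher as deposited. All 9 general cardiomyocyte markers were bright, 1973 or more in every heart. Their summed signal was 64897.4 to 72098 in WT and 61181.7 to 65317.4 in the libraries labelled KO, and 0 of 9 passed in either direction. As deposited 0 of 9 had a positive difference, against 3 without WT 1 and 5 with quantile normalization. Mybpc3 (-0.33, limma adjusted p = 0.109) and Myl3 (-0.13) lay below WT in every library labelled KO, as did 9.41% of all genes, and the others overlapped. All 7 atrial markers rose, from a summed 2977 to 9701.1 in WT to 13901.3 to 16594.1. WT 3 stood apart at 9701.1, against 3744.5 and 2977 in WT 1 and WT 2, and without WT 1, or with robust variance, 2 of the 7 passed. Of 5 adipocyte markers tested 4 rose, but 2 with quantile normalization or without KO 2, and 1 without WT 1. Their sums, 3398.3 to 4111.8 and 3786.1 to 5587.6, are mostly Fabp4, which gave 3322.5 to 4025.1 in WT and 3255.4 to 4040.2 in the libraries labelled KO. Adipoq gave 15.7 to 22.3 in WT and 54, 390.7 and 323 in KO 1 to 3, and Car3 29.7 to 67.8 in WT and 235, 1331.5 and 1147.7, so KO 1 was the lowest of the 3 for both. All 7 fibroblast markers lay above WT in every library labelled KO, beside 6.81% of all genes, with sums of 5722.2 to 6897.1 and 7624.3 to 9163.5. Of these 1 rose as deposited, 0 without WT 2, WT 3 or KO 3, and 4 with quantile normalization. Of 5 smooth muscle and pericyte markers 2 rose, with sums of 4502 to 5412.6 and 5821.3 to 7694.9, and 1 without KO 1 and 0 with quantile normalization or without WT 1. Of 2 skeletal muscle markers tested 1 rose and 1 fell, with sums of 1467.6 to 1767.4 and 784.2 to 1229, and neither passed without WT 1. These sums are mostly Acta1, the one that fell, at 1452.3 to 1741.3 in WT and 745.4 to 1177.3 in the libraries labelled KO. Tnnt3, Myh4 and Myh1 were at 12.4 or less in every heart and were not tested. Acta1 was thus bright without them, and which cells gave its signal was not tested. Endothelial and leukocyte markers gave no call among 5 and 3 tested, though 1 leukocyte marker rose and 1 cardiomyocyte marker fell without KO 1, and no marker was at 0 in any heart. The part of these shifts in the differences of the mitochondrial factors was not tested.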

How the data were processed

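RNA of 6 mouse hearts was hybridised to Affymetrix Mouse430_2 arrays. The deposited values are signal intensities on a linear scale, made with MAS5 per the submitters' processing notes; for its version, scaling target and detection calls nothing is given in the sources used here. They were used as deposited, with 16 added before log2. Of 45099 probe sets, 34958 carry 1 symbol in the platform table, and controls were left out. Probe sets with a mean under the 40th percentile were dropped, and the brightest probe set of a gene stood for it. Groups were compared with limma 3.58.1 (R 4.3.3; lmFit, eBayes with intensity trend), two-sided, with Benjamini-Hochberg adjustment over 12946 genes and a threshold of 0.05. With 3 hearts a group, an exact permutation test cannot go below 0.1, so none is given. No label says how hearts were collected beyond separate mice. The p-values measure the spread between these 6 samples, combined with the variance shared by genes of like intensity. That shared part had a weight of 45.6 degrees of freedom, so it outweighed a gene's own spread between hearts. The steps were tested on simulated data whose spread followed the intensity trend, with no shift between arrays. Such data do not probe the higher level of WT 1.

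Symbols of the 33 genes matched the gene table by ID. The members, related lists and markers were chosen with earlier results of these data known. Named genes were all members, Esrra, Ppargc1a, Ppargc1b and Esrrg, and from each related list the genes past the threshold (up to 6) or, where none passed, the 2 of smallest p. Promoter windows came from RefSeq on GRCm38.p6, searched on both strands. Alternatives covered pseudocount, scaling, filter, probe set rule, variance model, replicate block and each heart left out.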

Additional observations from a re-analysis of the deposited data

How the results depend on the processing

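The results were recomputed under 21 alternatives, of which the removal of WT 1 and KO 1 together was chosen after seeing the data. The median of the mitochondrial factors stayed below that of all genes in each, by 0.11 to 0.23 on the log2 scale, and 0 of them passed as higher in any. Those past the threshold as lower numbered 2 with quantile normalization and with cyclic loess, and 3 with trimmed-mean scaling. They numbered 1 with the 60th-percentile filter, with robust variance and without WT 1 and KO 1. With single hearts left out they numbered 0 to 1. The fit with that filter drew every gene's variance wholly from genes of like intensity, as did those without WT 2, KO 1, KO 2 or KO 3. With robust variance this held for the median gene. Genes lower in the libraries labelled KO numbered 18 without a filter, 53 with probe sets averaged, 57 without the intensity trend and 19 to 209 with single hearts left out. Genes higher numbered 48, 88 and 114 under the same 3 settings, 434 with array weights, 410 without WT 1 and KO 1 and 103 to 299 with single hearts left out. The cause was not tested.

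Of 690 pairs of member and alternative, 646 kept direction and side of the threshold, 12 passed it and 32, in 16 genes, changed sign. With probe sets averaged, Nrf1 was at 0.14, Ssbp1 at 0.024, Iars2 at 0.19, Ears2 at -0.080 and Esrrg at -0.10. Such averages take in dim probe sets, for Nrf1 the 2 that gave 18.3 or less. Tfb1m was at 0.11 without shared-probe suffixes, which leaves its dimmer probe set. Vars2 was at 0.00018 with quantile normalization and 0.0094 with trimmed-mean scaling. With array weights Vars2 was at 0.21, Wars2 at 0.0024, Gfm1 at 0.025 and Mtrf1l at 0.057. Without WT 1 and KO 1, Polg2 was at 0.035, Gfm1 at 0.11, Mtrf1l at 0.087, Cars2 at 0.058 and Hars2 at 0.030. With single hearts left out, Tfam ran from -0.24 to 0.029, Polg from -0.10 to 0.17, Top1mt from -0.20 to 0.23, Gfm1 from -0.14 to 0.040, Mtrf1l from -0.16 to 0.10, Ears2 from -0.0038 to 0.28, Fars2 from -0.26 to 0.017, Hars2 from -0.13 to 0.028, Iars2 from -0.20 to 0.0021, Vars2 from -0.40 to 0.042 and Wars2 from -0.25 to 0.065.

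With the replicate number as a block, 0 of the factors passed, 29 were negative with a median of -0.20, and 175 genes were lower and 237 higher. Over all genes tested, same-numbered hearts deviated from their group means with correlations of 0.027, -0.016 and 0.029. Those of unlike numbers ran from -0.079 to 0.058, so no pairing by number was seen. A pairing limited to some genes need not show in these correlations. Dim genes such as Mars2 and Top1mt, at signals where 16 is added, have understated changes.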
